A study of Mus musculus with 8 samples.

Results

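The regions described here are places where an E2F3 antibody gave a listed peak in cells without E2f3 but not in wild-type cells. The authors listed 3314 peaks of this antibody in E2f3-null cells, and 799 of them overlapped no wild-type E2F3 peak by even 1 bp. The other 2515 overlapped a wild-type peak. Merged across both genotypes, the antibody had 9643 regions in all, made up of these 799 null-only peaks, 2467 regions listed in both genotypes and 6377 listed in wild-type cells alone. The null-only peaks were split by the E2f3-null HELLS peak list into 326 that overlapped a HELLS peak and 473 that did not. The members were thus chosen by the E2F3 reads of both genotypes and, through the peak calls, by IgG, so E2F3 reads at these peaks are given as a description.

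The cells were mouse embryonic fibroblasts of stage E13.5, either E2f3-/- (called E2f3-null) or wild type, and chromatin of each genotype was precipitated with an E2F3, a HELLS or an H3K27me3 antibody, or with IgG as a control. The labels give no strain, allele or promoter, and do not say whether the cells of a genotype came from 1 embryo or several. Each genotype and antibody had 1 library, so differences have no replicate check, no p-value is given, and the exact 95% intervals in parentheses reflect counting error alone. Distinct reads per ChIP library ranged from 3799779 to 5640555. The deposited IgG reads were the same in both genotypes and served as 1 background library of 7219419 distinct reads.

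E2F3 belongs to the E2F family of transcription factors, which bind promoters of genes for DNA replication and cell division and are held in check by the retinoblastoma protein. HELLS, also called LSH, is a SNF2-type helicase that remodels nucleosomes and is needed for normal DNA methylation. H3K27me3 is the histone mark written by Polycomb repressive complexes on silent genes, many of them developmental regulators. IgG binds no chosen target, and its reads show where chromatin is recovered without a specific antibody. An antibody used in cells that lack its labelled target can recover chromatin through other proteins or without specific binding, and these data hold no measurement that separates such sources.

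The null-only peaks were weaker in the E2f3-null list than the peaks shared with wild-type cells. Their median score by the authors was 61.4 (range 50.01 to 236), against 74.9 for the other 2515 null peaks. They were also narrower, with a median length of 481 bp against 724 bp, and held a median of 14 tags against 25. A false discovery rate over 5%, as the authors gave it, applied to 406 of the 799 (50.8%), against 734 of the other 2515 (29.2%). The authors' fold enrichment ran the other way, with a median of 11.7 against 8.74. Few of the null-only peaks were strong, with 61 (7.63%) at a score of 100 or more, against 617 of the others (24.5%). The share of null peaks that were null-only was 36.1% of the 991 with scores from 50 to 60 and 8.81% of the 159 at 150 or more.

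E2F3 antibody reads of both genotypes were found at the null-only peaks. The 799 peaks together held 12391 E2f3-null and 11782 wild-type reads, a ratio of 1.09 after scaling to the reads outside peaks (1.07 to 1.12). A peak held a median of 14 reads in E2f3-null cells (7 to 137) and 13 in wild-type cells (0 to 102). The counts of both genotypes therefore overlapped widely. A region was called when the scaled counts differed by 2-fold or more and the interval of their ratio excluded 1. By this rule 92 of the 799 were higher in E2f3-null cells, where 0.954% of all 9643 regions were, and 7 were lower, where 66.8% were. At 691 of the peaks the interval held 1. The rule that chose the peaks used these counts, so nothing is read from these calls. With libraries scaled to the median region listed in both genotypes, which was 1.16 lower on the log2 scale in E2f3-null cells, the ratio was 2.44 (2.38 to 2.51). Every E2F3 ratio given here is 2.23 times as large under that scaling.

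Wild-type cells gave E2F3 signal over IgG at many of these unlisted places. Wild-type E2F3 reads were enriched at 377 of the 799 (47.2%), where enriched means 2-fold or more over scaled IgG reads with an interval that excluded 1. The same was so at 94.1% of all 9643 regions, most of which were chosen as wild-type peaks. In E2f3-null cells 537 (67.2%) were enriched, where 31.4% of all regions were. Peaks called over IgG in E2f3-null cells made up all of the 799 but a minority of the 9643. That contrast is therefore built in, and nothing is read from it. The median log2 enrichment over IgG at the null-only peaks was 1.48 in E2f3-null and 1.25 in wild-type cells. The 968 regions listed in wild-type cells alone with a score under 60 had a wild-type median of 1.90, and 89.8% of them were enriched.

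**Figure D1:**
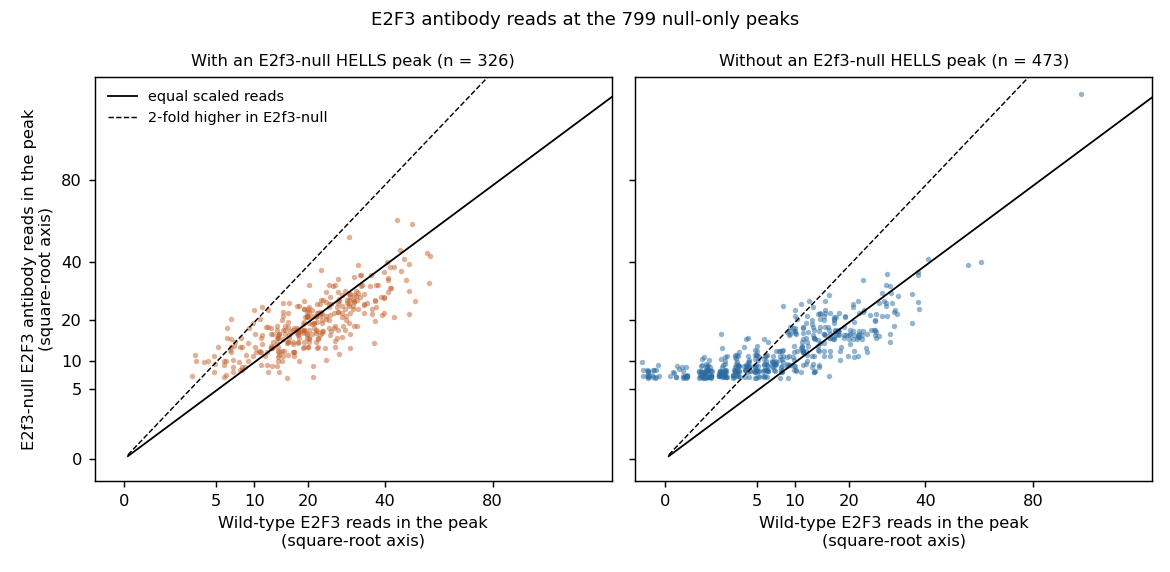
E2F3 antibody reads in each null-only peak, in E2f3-null cells (vertical) against wild-type cells (horizontal), both on square-root axes and with points moved slightly so that ties show. The solid line marks equal scaled reads and the dashed line a 2-fold higher level in E2f3-null cells. The 326 peaks with an E2f3-null HELLS peak lie around the solid line, and the 40 peaks with 0 wild-type reads are all among the 473 without one.

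Null-only peaks with an E2f3-null HELLS peak held more reads than those without one in every library, by the median. For wild-type E2F3 the medians were 20 against 7 and for IgG 13 against 5. Those with a HELLS peak were also longer, with a median of 602.5 bp against 415 bp. The 326 peaks with a HELLS peak held 6421 E2f3-null and 7135 wild-type E2F3 reads, a ratio of 0.935 (0.904 to 0.967). Their wild-type reads had a median of 20 and ran from 3 to 55, and 233 of the 326 (71.5%) were enriched over IgG in wild-type cells. Of the 326, 5 (1.53%) were called higher and 6 (1.84%) lower, where 0.954% and 66.8% of all 9643 regions were. Nothing is read from these calls, since the choice of peaks used the same counts. Scaled to the median region listed in both genotypes, the ratio was 2.09 (2.02 to 2.16), so its direction depended on the scaling.

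The 473 peaks without a HELLS peak held 5970 E2f3-null and 4647 wild-type E2F3 reads, a ratio of 1.34 (1.29 to 1.39). All 40 null-only peaks with 0 wild-type reads lay among these 473. Of the 473, 87 (18.4%) were called higher and 1 lower, where 0.954% and 66.8% of all 9643 regions were. The rule that chose the peaks used these counts, so nothing is read from the calls. The counts of the 473 were small, with a median of 10 reads in E2f3-null cells and 7 in wild-type cells. The 473 were also the weaker peaks, with a median score of 58.0 against 70.3 for those with a HELLS peak. Score, read number and HELLS listing thus moved together, and their parts in the difference were not tested. Under the scaling to regions listed in both genotypes, the ratio was 2.98 (2.87 to 3.10).

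The strongest null-only peak by the authors' score lay on chromosome 4 from 46357403 to 46358397 (mm9, as are all positions here). It held 39 E2f3-null and 32 wild-type E2F3 reads, whose ratio was 1.27 (0.773 to 2.09), and 19 IgG reads. The next, on chromosome 5 from 114550300 to 114550849, held 25 and 23 E2F3 reads in E2f3-null and wild-type cells beside 9 IgG reads. A peak on chromosome 2 from 152897342 to 152897923 held 23 E2f3-null and 21 wild-type E2F3 reads, and had the highest authors' fold enrichment of the null-only list, at 38.0. The fourth, on chromosome 4 from 4719762 to 4720614, held 27 E2f3-null and 39 wild-type reads. The fifth, on chromosome 7 from 117912145 to 117912537, held 19 E2f3-null and 23 wild-type reads. All 5 overlapped an E2f3-null HELLS peak, and at all 5 the interval of the E2F3 ratio held 1. With scaling to the median region listed in both genotypes, the first 3 were called higher in E2f3-null cells, with log2 ratios of 1.497, 1.33 and 1.34.

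The peak with the most E2F3 reads, picked out after its values were seen, was also the longest of the 799. It lay on chromosome 10 from 24315130 to 24317450 and held 137 E2f3-null and 102 wild-type reads. It held 92 IgG reads, the most of any null-only peak.

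At the other end stood 40 peaks with 0 wild-type E2F3 reads, of which the first 5 in order of chromosome name serve as examples. On chromosome 1, the peak from 34863186 to 34863423 held 8 E2f3-null reads and 0 wild-type reads beside 3 IgG reads. It was 2.77-fold higher with the 0 set to a floor of 3 counts, and its exact interval began at 1.77. The peaks from 61285743 to 61286139 and from 82781145 to 82781449 on the same chromosome each held 7 E2f3-null and 0 wild-type reads. The peak from 94507522 to 94507888 held 8 E2f3-null and 0 wild-type reads. On chromosome 10, the peak from 41777105 to 41777588 held 9 E2f3-null and 0 wild-type reads beside 4 IgG reads. It was 3.12-fold higher at that floor, and its exact interval began at 2.05. In a 500 bp window at the summit the log2 ratio was 1.34 both here and at the peak from 34863186, and neither was called. None of the 5 overlapped an E2f3-null HELLS peak or a wild-type H3K27me3 peak, and their E2f3-null HELLS reads numbered 3 at most. At these sites unscaled E2f3-null E2F3 reads outnumbered those of every other ChIP library. The sites were picked for a high ratio in that library, so nothing is read from this.

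Set beside the other peak lists, the null-only peaks lay less on HELLS peaks and more on H3K27me3 peaks than the other null peaks did. Of the 799, 40.8% (37.4 to 44.3) overlapped an E2f3-null HELLS peak, against 83.8% (82.3 to 85.2) of the other 2515. A wild-type HELLS peak was overlapped by 38 (4.76%, 3.39 to 6.47), against 831 of the others (33.0%, 31.2 to 34.9). For H3K27me3 the order turned. A wild-type H3K27me3 peak was overlapped by 296 of the 799 (37.0%, 33.7 to 40.5), against 506 of the others (20.1%, 18.6 to 21.7). An E2f3-null H3K27me3 peak was overlapped by 226 (28.3%, 25.2 to 31.5), against 314 of the others (12.5%, 11.2 to 13.8). The remaining null-only peaks included 320 (40.1%) that overlapped no peak of either the HELLS or the H3K27me3 lists.

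The H3K27me3 difference was widest among the strongest peaks. At a score of 100 or more, 33 of 61 null-only peaks (54.1%, 40.9 to 66.9) overlapped a wild-type H3K27me3 peak, against 112 of 617 other null peaks (18.2%, 15.2 to 21.4). At scores from 60 to 100 the shares were 41.3% of the null-only peaks (36.3 to 46.5) and 20.5% of the others (18.3 to 22.8). Under 60 they were 29.6% (24.9 to 34.6) and 21.3% (18.2 to 24.7). The share on H3K27me3 peaks thus went up with score among the null-only peaks and stayed between 18.2% and 21.3% among the others. The HELLS difference ran the opposite way. At a score of 100 or more, 51 of 61 null-only peaks (83.6%, 71.9 to 91.9) overlapped an E2f3-null HELLS peak, against 94.7% of the others (92.6 to 96.3). Under 60 the shares were 23.5% (19.2 to 28.2) and 71.4% (67.7 to 74.9).

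**Figure D2:**
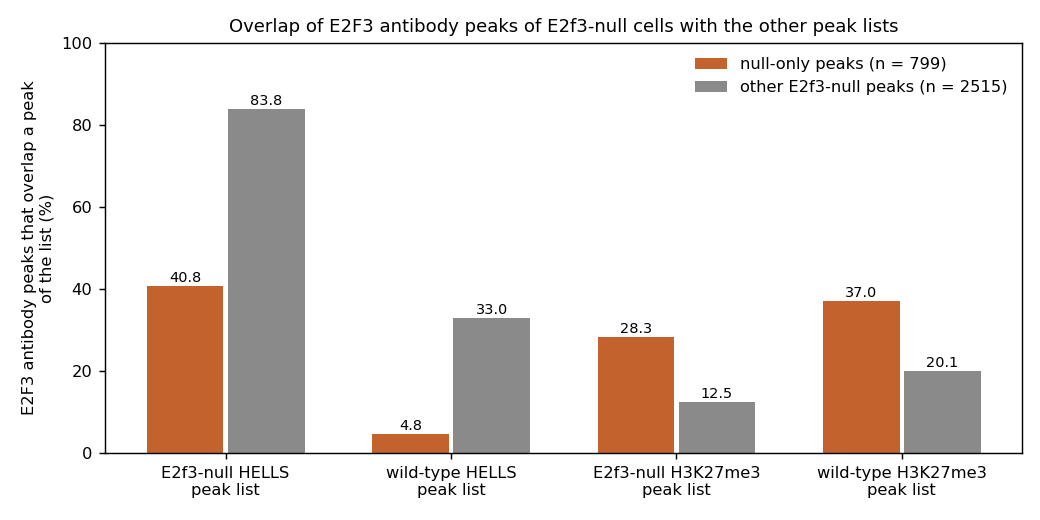
Share of E2F3 antibody peaks of E2f3-null cells that overlap a peak of each of the other 4 lists by 1 bp or more, for the 799 null-only peaks and the other 2515 null peaks. The null-only peaks have the smaller share on both HELLS lists (40.8% against 83.8%, and 4.76% against 33.0%) and the larger share on both H3K27me3 lists (28.3% against 12.5%, and 37.0% against 20.1%).

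HELLS and H3K27me3 listing went together within the null-only peaks. Of the 296 on a wild-type H3K27me3 peak, 152 (51.4%, 45.5 to 57.2) overlapped an E2f3-null HELLS peak, against 34.6% of the 503 not on one. Among the other null peaks these shares were 82.6% and 84.1%. Both listings also went up with score among the null-only peaks. Null-only peaks on a wild-type H3K27me3 peak were longer than those off one, with a median of 575.5 bp against 445 bp. The parts of score and length in the joint listing were not tested. Of the 296, 220 (74.3%, 69.0 to 79.2) were also on an E2f3-null H3K27me3 peak, against 60.9% (56.5 to 65.2) of the 506 other null peaks on a wild-type one. Seen from the other lists the null-only peaks were a small part, since they met 323 of the 4740 E2f3-null HELLS peaks (6.81%) and 290 of the 17064 wild-type H3K27me3 peaks (1.70%).

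HELLS reads, which were not used to choose the 799 peaks, differed between genotypes about as much there as at all regions of the E2F3 antibody. The peaks held 11545 E2f3-null and 10000 wild-type HELLS reads, a scaled ratio of 1.15 (1.12 to 1.18). Over all 9643 regions the ratio was 1.16, and the median log2 ratio was 0.17 both there and at the null-only peaks. Of the 799, 19 (2.38%) were called higher in E2f3-null cells, where 2.28% of all regions were, and 5 (0.626%) were called lower, where 0.664% were. These shares lie near the background. Scaled to the median of HELLS regions listed in both genotypes, which was 0.18 higher on the log2 scale in E2f3-null cells, the ratio was 1.01 (0.985 to 1.04), with 8 peaks higher and 10 lower. Under that scaling the interval of the ratio held 1, so the difference at the null-only peaks as a whole depended on the scaling.

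Wild-type HELLS reads, which neither the choice of peaks nor the split used, were less enriched at the null-only peaks than at regions listed in both genotypes. The median log2 enrichment over IgG was 0.74 at the 799 and 1.12 at the 2467. Wild-type HELLS was enriched by the 2-fold rule at 130 of the 799 (16.3%), where 28.1% of all regions were, and at 58.2% of the regions listed in both genotypes. The latter were longer, with a median of 940 bp against 481 bp. Regions listed in wild-type cells alone were not above the null-only peaks in the median, at 0.66, and 17.9% of them were enriched. Those with a score under 60 had a median of 0.47, with 9.09% enriched. The null-only peaks with an E2f3-null HELLS peak had a median of 0.84 with 98 of 326 enriched, and those without had 0.57 with 32 of 473 enriched. In the E2f3-null HELLS library 217 of the 799 (27.2%) were enriched, where 39.0% of all regions and 26.8% of those listed in wild-type cells alone were. The places with a HELLS peak in the E2f3-null list thus had the higher median over IgG in the wild-type library too. Over summed reads the ratios to IgG were 1.87 with a HELLS peak and 1.55 without. IgG was also the control of the peak calls that made the split, so these values are not free of it. Median wild-type HELLS reads were 17 with a HELLS peak and 6 without, and at low counts an interval excludes 1 less readily.

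HELLS reads in E2f3-null cells at the split are a description, since the E2f3-null HELLS list made it. The 326 peaks held 7923 E2f3-null and 6244 wild-type HELLS reads, a ratio of 1.26 (1.22 to 1.30), with 18 higher and 1 lower. The 473 held 3622 and 3756 reads, a ratio of 0.958 (0.915 to 1.00), with 1 higher and 4 lower. Regions listed in both genotypes split the same way had ratios of 1.23 with an E2f3-null HELLS peak and 0.933 without.

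The 5 null-only peaks with the most E2f3-null HELLS reads per kb held between 70.5 and 82.4 of them. The first, on chromosome 19 from 38298389 to 38298667, had 23 E2f3-null and 17 wild-type HELLS reads, beside 13 E2F3 reads in each genotype and 9 IgG reads. The second, on chromosome 11 from 44431733 to 44432013, had 23 E2f3-null and 13 wild-type HELLS reads, and with 13 IgG reads was also among the 5 peaks with the most IgG per kb. The third, on chromosome 19 from 44821103 to 44821340, had 18 E2f3-null and 4 wild-type HELLS reads, a ratio of 4.47 (1.47 to 18.2). The fourth, on chromosome 8 from 87083120 to 87083540, had 30 HELLS reads in each genotype. The fifth, on chromosome 15 from 100882990 to 100883797, had 57 E2f3-null and 40 wild-type HELLS reads. Of these 5, the interval of the HELLS ratio excluded 1 at the third alone.

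The largest HELLS rises and falls rested on few reads. The peak with the largest rise, on chromosome 14 from 55250615 to 55251502, had 19 E2f3-null and 4 wild-type HELLS reads, a ratio of 4.72 (1.57 to 19.1). The same peak held 20 E2f3-null and 7 wild-type E2F3 reads. The third largest rise, on chromosome 2 from 74584601 to 74585156, had 25 E2f3-null and 6 wild-type HELLS reads, a ratio of 4.14 (1.66 to 12.3), and its H3K27me3 reads were 23 in E2f3-null and 138 in wild-type cells. The other rises among the first 5 were the peak on chromosome 19 from 44821103 described above, one on chromosome 2 from 30808412 to 30808673 with 16 E2f3-null and 4 wild-type reads, and one on chromosome 11 from 51671227 to 51671660 with 12 and 3. The last was not called, at a log2 ratio of 1.65, when scaled to the median of HELLS regions listed in both genotypes.

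Among the 5 called falls in HELLS, the largest lay on chromosome 19 from 45098268 to 45098748, with 0 E2f3-null and 8 wild-type HELLS reads. It was 2.69-fold lower with the 0 set to the floor of 3 counts, and the exact interval of its ratio reached up to 0.582. On chromosome 15 from 8229915 to 8230297 there were 0 E2f3-null and 6 wild-type HELLS reads. This was 2.01-fold lower at that floor, but the exact interval of the ratio reached up to 0.84. The peak on chromosome 17 from 85189590 to 85190082 had 6 E2f3-null and 24 wild-type HELLS reads, and its ratio was 0.248 (0.0830 to 0.624). The peak on chromosome 7 from 4100687 to 4101340 had 4 E2f3-null and 13 wild-type reads. These 4 peaks had no E2f3-null HELLS peak. Their E2F3 antibody reads in E2f3-null against wild-type cells were 11 against 6, 13 against 5, 20 against 10 and 18 against 10. The scaled ratio was also over 1 at 365 of the 473 null-only peaks without a HELLS peak. The choice of peaks used these reads, so no link to the HELLS falls is read from them. None of those 4 E2F3 ratios had an interval that excluded 1. Scaled to the median E2F3 region listed in both genotypes, which makes every E2F3 ratio 2.23 times as large, all 4 were called higher. Their log2 ratios were then 2.04, 2.51, 2.18 and 2.03. The peak on chromosome 17 was also called in a 500 bp window at the summit (1.25). The last fall was at the peak on chromosome 2 from 152897342 described above, with 12 E2f3-null and 25 wild-type HELLS reads. In the 500 bp window 3 of the 5 HELLS falls were not called, with log2 ratios of -1.595 (chromosome 19 from 45098268), -1.305 (chromosome 7 from 4100687) and -0.98 (chromosome 2 from 152897342).

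H3K27me3 reads were lower in E2f3-null cells over the null-only peaks, as they were over all regions of the E2F3 antibody. The peaks held 9165 E2f3-null and 34428 wild-type H3K27me3 reads, a ratio of 0.358 (0.349 to 0.366), against 0.333 over all 9643 regions. The median log2 ratio was -1.65, against -1.76 over all regions. Of the 799, 407 (50.9%) were called lower, where 49.6% of all regions were, and 1 was called higher, where 0.0104% were. These shares lie near the background, apart from the single rise. Scaled to the median of H3K27me3 regions listed in both genotypes, which was 1.02 lower on the log2 scale in E2f3-null cells, the ratio was 0.723 (0.706 to 0.739), with 97 peaks lower and 8 higher. The ratio was 0.371 at the 296 peaks on a wild-type H3K27me3 peak and 0.272 at the 503 off one. With 1 library per genotype, a change in the mark and a difference between libraries in what was recovered cannot be told apart. Nor can fewer cells carrying the mark and less of it in each cell. The same holds for the other antibodies.

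H3K27me3 was enriched over IgG at the null-only peaks more often than at all regions of the antibody, in both genotypes. In E2f3-null cells 205 of the 799 (25.7%) were enriched by the 2-fold rule, where 10.7% of all 9643 regions were. In wild-type cells 362 (45.3%) were, where 26.5% of all regions were. At regions listed in both genotypes 11.9% were enriched in E2f3-null and 28.7% in wild-type cells. Neither H3K27me3 library was used to choose the peaks.

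Most H3K27me3 reads of the list lay in the 296 peaks on a wild-type H3K27me3 peak. These held 8231 E2f3-null and 29823 wild-type reads, with a median of 21 reads per peak in E2f3-null cells (0 to 142) and 86 in wild-type cells (8 to 708). Of the 296, 247 (83.5%) were called lower, where 49.6% of all regions were, and so were 393 of 509 regions listed in both genotypes that overlapped a wild-type H3K27me3 peak (77.2%). In E2f3-null cells 201 of the 296 (67.9%) were still enriched over IgG, with a median log2 enrichment of 2.07, against 3.65 in wild-type cells. The mark's signal over IgG was thus lower but present at most of these places. The 503 peaks off the wild-type H3K27me3 list held 934 E2f3-null and 4605 wild-type reads, a ratio of 0.272 (0.254 to 0.292). There the E2f3-null H3K27me3 library had fewer reads than IgG (0.405 of the scaled IgG reads, 0.377 to 0.435), and all 93 null-only peaks called 2-fold or more below IgG were here, which is 11.6% of the 799, where 27.9% of all 9643 regions were.

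The single called rise in H3K27me3 lay on chromosome 12 from 88190902 to 88191353, with 7 E2f3-null reads and 1 wild-type read beside 2 IgG reads, a ratio of 9.40 (1.21 to 424). It was not called in a 500 bp window at the summit, where the log2 ratio was 2.54. The 5 largest falls all had 0 E2f3-null reads. On chromosome 11 from 94852870 to 94853929 there were 0 E2f3-null and 32 wild-type reads, at least 7.94-fold lower at the floor of 3 counts, beside 41 IgG reads. On chromosome 6 from 91106524 to 91107100 there were 0 and 29, at least 7.20-fold lower, beside 8 IgG reads. The other 3 lay on chromosome 5 from 118426711 to 118427354, where the reads were 0 and 27, on chromosome 11 from 43649780 to 43650228 with 0 and 25, and on chromosome 11 from 94881175 to 94881576 with 0 and 22. IgG held 22, 17 and 4 reads at these 3. Of the 5, those on chromosome 6 and on chromosome 11 from 94881175 overlapped a wild-type H3K27me3 peak.

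Split by both HELLS and H3K27me3 lists, the null-only peaks fell into 4 sets with different E2F3 ratios, given here as a description. The 152 peaks on both lists held 3082 E2f3-null and 3198 wild-type E2F3 reads, a ratio of 1.00 (0.953 to 1.05). The 174 on the HELLS list alone held 3339 and 3937, a ratio of 0.881 (0.841 to 0.923). The 144 on the H3K27me3 list alone held 2120 and 1786, a ratio of 1.23 (1.16 to 1.31). The 329 on neither held 3850 and 2861, a ratio of 1.398 (1.33 to 1.47). They had 74 of the 92 peaks called higher, which is 22.5% of the 329, where 0.954% of all 9643 regions were. Nothing is read from these calls, since the choice of peaks used the same counts. The 152 on both lists had the most reads over IgG in the HELLS libraries, with median log2 enrichments of 1.41 in E2f3-null and 0.98 in wild-type cells. The 329 on neither list had 0.46 and 0.47. The E2f3-null HELLS values restate the split, since the E2f3-null HELLS list made it, while the wild-type HELLS library was not used.

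**Figure D3:**
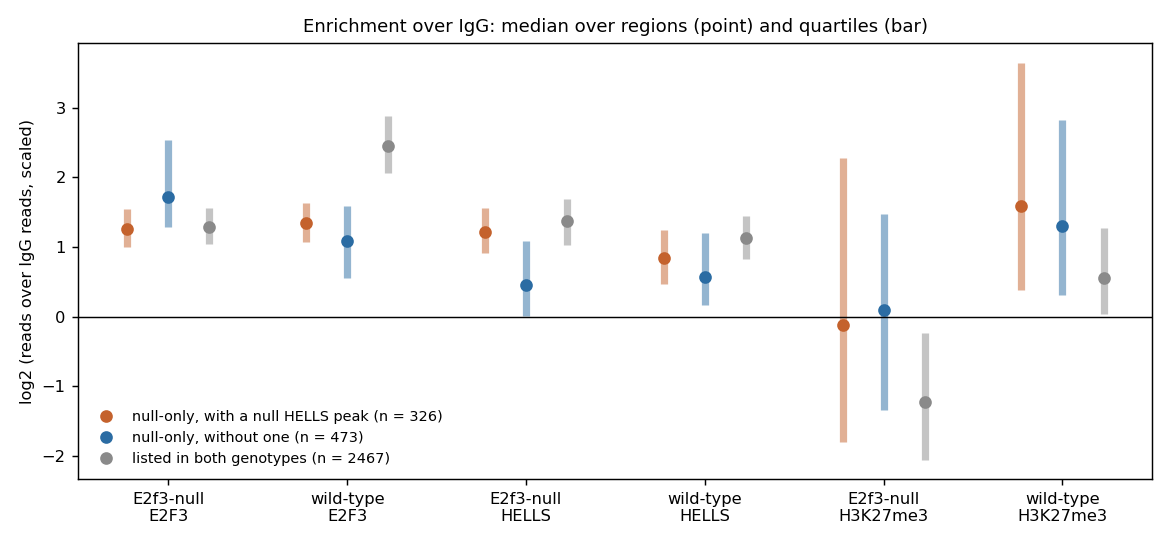
Log2 of scaled reads over IgG reads for the 6 ChIP libraries, as the median over regions (point) and quartiles (bar), in null-only peaks with an E2f3-null HELLS peak (326), in those without one (473) and in regions listed in both genotypes (2467). Wild-type E2F3 stands at 2.46 in regions listed in both genotypes, against 1.34 and 1.09 in the null-only peaks with and without a HELLS peak, while wild-type H3K27me3 is higher in the null-only peaks, at 1.59 and 1.30 against 0.56.

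IgG reads were also dense at the null-only peaks. Their density was 7.01 times that outside peaks (6.85 to 7.16), against 7.57 times at regions listed in both genotypes and 7.41 times at those listed in wild-type cells alone. With an E2f3-null HELLS peak it was 8.38 times and without one 5.71 times, so IgG moved with the HELLS split. Its part in the split was not tested. The 5 null-only peaks with the most IgG reads per kb held between 44.8 and 58.3. The first, on chromosome 5 from 25265786 to 25266128, held 20 IgG reads beside 16 E2f3-null and 26 wild-type E2F3 reads. One lay on the Y chromosome from 2867872 to 2868168, with 15 IgG reads beside 9 E2f3-null and 13 wild-type E2F3 reads. The remaining 3 were on chromosome 11 from 44431733, described above, and on chromosome 15 from 52543962 to 52544340 (18 IgG reads) and from 76437575 to 76438177 (27 IgG reads). At the last of these E2F3 reads numbered 26 in E2f3-null and 50 in wild-type cells, a ratio of 0.540 (0.323 to 0.885). At all 5 the scaled E2F3 reads were fewer in E2f3-null than in wild-type cells, though only at the last did the interval exclude 1. All 5 turned round when scaled to the median region listed in both genotypes, with log2 ratios between 0.29 and 0.78.

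At the null-only peaks, reads of every library were denser within 200 bp of the summit than between 2 and 3 kb away. The summits are those of the E2f3-null E2F3 library, so a maximum of that library there is built in. Within 200 bp of the summit, peaks with an E2f3-null HELLS peak had 8.73 E2f3-null and 9.28 wild-type E2F3 reads per kb per 1000000 reads outside peaks, beside 3.39 IgG reads. Peaks without one had 6.42 E2f3-null and 4.65 wild-type E2F3 reads, beside 1.97 IgG reads. At the summits of the other 2515 null peaks the values were 10.2 in E2f3-null and 22.2 in wild-type cells, beside 3.34 for IgG. Between 2 and 3 kb from the summit every E2F3, HELLS and IgG value lay between 0.617 and 0.731. The H3K27me3 values at that distance lay between 1.04 and 1.77 at the null-only peaks.

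Wild-type H3K27me3 reads at the summits were 22.0 on the same scale with a HELLS peak and 10.9 without, against 9.05 at the other null peaks. E2f3-null H3K27me3 reads were 8.91, 3.45 and 3.51 in the same order. E2f3-null E2F3 reads came from both strands at all but 5 of the 799 peaks. The median distance between plus- and minus-strand reads of the E2f3-null E2F3 library was 100 bp with a HELLS peak and 103 bp without, against 92 bp at the other null peaks. For the wild-type E2F3 library it was 77, 79 and 66 bp in the same order. For the E2f3-null HELLS library it was 98, 93 and 87 bp, for wild-type HELLS 77, 87.5 and 78 bp, and for IgG 68, 54 and 49 bp. The distance thus also differed by library. The file headers gave fragment lengths of 137 and 134 bp for the E2f3-null E2F3 and HELLS libraries, against 116 and 115 bp for the wild-type ones.

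**Figure D4:**
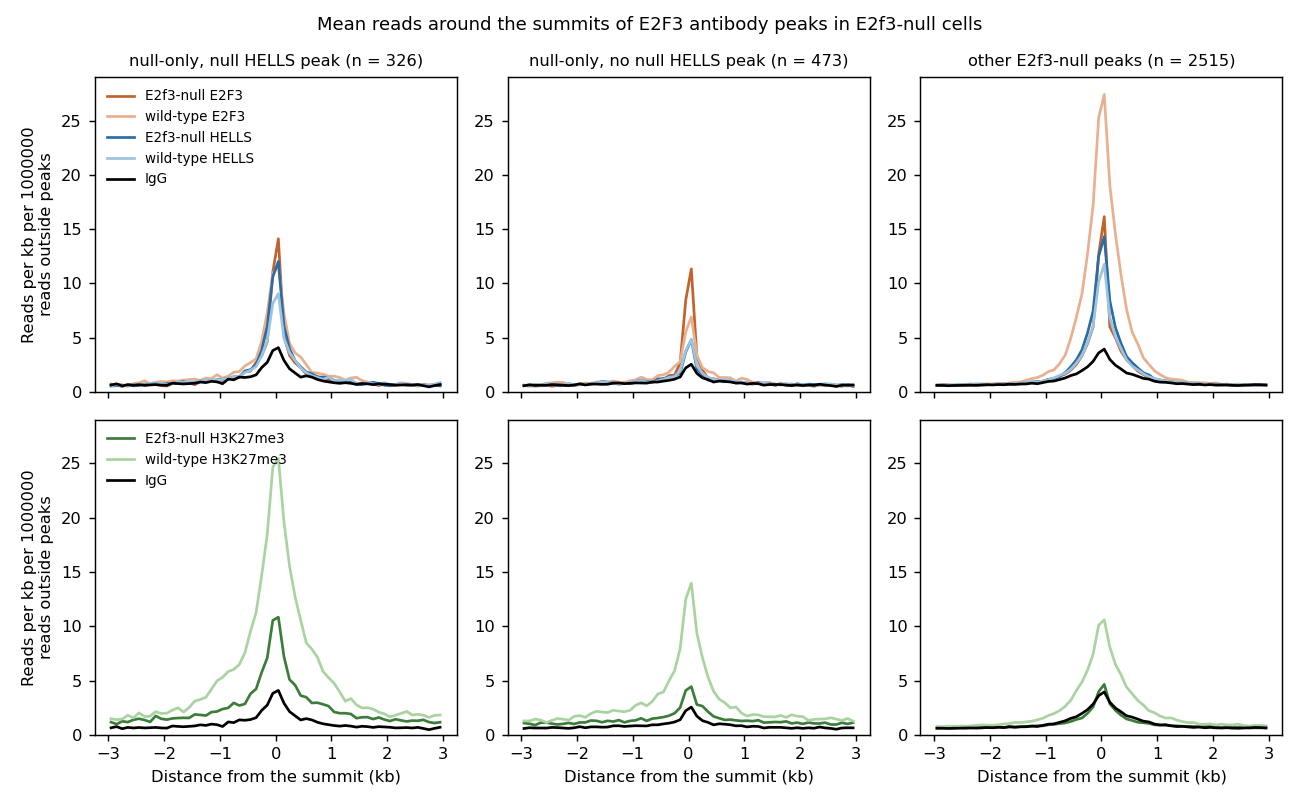
Mean reads per kb per 1000000 reads outside peaks, in 100 bp bins by distance from the E2f3-null E2F3 summit, for null-only peaks with an E2f3-null HELLS peak (326), those without (473) and the other E2f3-null peaks (2515). Top, the E2F3, HELLS and IgG libraries, and bottom, the H3K27me3 and IgG libraries. Within 200 bp of the summit, E2f3-null E2F3 stands at 10.2 and wild-type E2F3 at 22.2 at the other null peaks, against 8.73 and 9.28 at null-only peaks with a HELLS peak, and wild-type H3K27me3 is highest at null-only peaks with a HELLS peak (22.0).

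The null-only peaks were mostly far from wild-type peaks. The median gap to the nearest wild-type E2F3 peak was 51.9 kb, with quartiles of 15.2 and 125 kb, and 241 of the 799 lay more than 100 kb away. Another 59 (7.38%) lay within 1 kb. They were spread over all chromosomes, and made up between 18.2% (chromosome 4) and 30.0% (chromosome 15) of the null peaks of an autosome. On the X chromosome 14 of 43 null peaks were null-only (32.6%), and the only null peak on the Y chromosome was.

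Chromosome X reads differed between the libraries as a whole. The share of reads on the X chromosome was 1.22 times as large in the E2f3-null as in the wild-type E2F3 library, 1.22 times for HELLS and 1.61 times for H3K27me3, and the Y share was between 0.493 and 0.559 times as large. The 14 null-only peaks on the X chromosome held 169 E2f3-null and 106 wild-type E2F3 reads, a ratio of 1.66 (1.29 to 2.13). The 784 on autosomes had a ratio of 1.09 (1.06 to 1.12). The part of the chromosome shares in the value for the X chromosome was not tested.

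At the edge of the rule, peaks on both sides of it held E2F3 reads of both genotypes. The nearest null-only peak to a wild-type peak, on chromosome 3 from 136333520 to 136333965, lay 4 bp from it and held 16 E2f3-null and 19 wild-type E2F3 reads. The next lay 9 bp away, on chromosome 10 from 79229962 to 79230242, with 8 and 3 reads, and the third 23 bp away, on chromosome 7 from 35438971 to 35439453, with 21 and 10. Just outside the rule, a peak on chromosome 1 from 121733563 to 121734037 shared 2 bp with a wild-type peak and held 13 E2f3-null and 22 wild-type reads. Peaks on chromosome 3 from 151873337 to 151874096 and on chromosome 13 from 55311285 to 55312386 shared 6 and 24 bp, with 27 and 38 reads in the first and 34 and 25 in the second. Of the null-only peaks, 40 had a score under 51, close to the lowest score in the list of 50.01. The lowest score in the wild-type list was also 50.01.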

How the data were processed

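Chromatin immunoprecipitation with sequencing was measured in 8 samples in 8 groups, 1 library per genotype and antibody. Per the labels' protocols, the ligated DNA went through 22 PCR cycles, pieces of 200 to 300 bp were kept and 36 nucleotides were read from 1 end. The genome build was mm9, per the submitters' processing notes. The name of the aligner is not given in the sources used here. Of the deposited reads, 98.3% to 99.0% per library were 25 bp long. Peaks were called per library with MACS 1.4.0beta against IgG at a p cutoff of 1e-05, per the file headers. The deposited peak tables give a count of tags, a score (the −log10 of the p-value times 10), a fold enrichment, which is a ratio, and in percent a false discovery rate. The height of the signal at each summit was deposited too. These values are the authors' own and only describe or filter peaks. The peak headers name controls of 3791438 tags for E2f3-null and 3444066 for wild-type cells, but the deposited IgG reads of both were identical.

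From the reads, 1 per position and strand was kept, moved 60 bp from its 5' end, counted in each region and divided by the library's distinct reads lying outside the 27092 regions (21.5 Mb) that held a peak in any library. Peaks of both genotypes that shared 1 bp were merged. Ratios are E2f3-null over wild-type with exact conditional binomial 95% intervals, and shares have Clopper-Pearson intervals. For log2 values 0.5 was added to both counts. The region rule was tried on simulated counts that held counting error alone and were scaled by all reads. That check cannot show how the rule behaves when libraries differ for other reasons. Calls and backgrounds were computed over all 9643 regions. Python 3.11.15, numpy 2.4.6, pandas 2.3.3, scipy 1.17.1 and matplotlib 3.10.9 were used. The regions, splits and lists were chosen with earlier results of these data known. Named regions were, by rule, the 5 with the highest score, E2F3 ratio, HELLS density and IgG density, the 5 largest called changes each way in HELLS and H3K27me3, and the 3 nearest each side of the overlap rule; ties went by chromosome name. Score bands were added after seeing the data. The alternatives were other reads, windows, scalings, thresholds, overlaps, score and false discovery rate limits, and autosomes or the X chromosome alone. No gene names are given, since no annotation of mm9 was used here. Whether the E2f3 deletion shows in the reads was not examined for these regions.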

Additional observations from a re-analysis of the deposited data

How the results depend on the processing

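No paired analysis was possible because each genotype and antibody had 1 library, and no library could be left out. Of 56 alternative values for the comparisons, 31 stayed within their limits, 24 moved and 1 reversed. The number of null-only peaks, 799, became 170 with scores of 100 or more in every list, 1522 when summits had to lie within 250 bp, 393 at a false discovery rate of 5% or less and 441 at an E2f3-null score of 60 or more. The share with an E2f3-null HELLS peak, 40.8%, became 60.6%, 45.2% and 57.8% under the first 3 of these. When libraries were scaled to the median shared region, ratios became 2.44 for E2F3 (2.09 with and 2.98 without an E2f3-null HELLS peak), 1.01 for HELLS and 0.723 for H3K27me3, with 8 HELLS rises, 10 HELLS falls, 8 H3K27me3 rises and 97 H3K27me3 falls. This scaling takes out any change common to the shared regions. The H3K27me3 log2 ratio on chromosome 15 from 100882990, -1.01, turned to 0.0043 under it. Scaling by all distinct reads gave 1.17 for E2F3 and 0.395 for H3K27me3. A 500 bp window at the summit gave 30 HELLS rises and an IgG density 6.25 times that outside. At a false discovery rate of 5% or less the H3K27me3 ratio was 0.367, the wild-type HELLS median 0.83 and the IgG density 7.58 times. On the X chromosome alone the ratios were 1.66 for E2F3 and 0.460 for H3K27me3. The score limit of 60, the values for the X chromosome and the scaling of the HELLS split were chosen after seeing the data. The causes of these moves were not tested, apart from those that follow from fewer peaks. For 36 named regions, 364 of 432 values kept their direction and their side of the limit. Another 31 changed direction but were called under neither setting, 20 lost the call, 16 gained one and 1 called value reversed. Of 33 changes of direction, 26 came with the scaling to the median shared region. At the median null-only peak, with 14 E2f3-null and 13 wild-type E2F3 reads, counting error alone allowed ratios between 0.488 and 2.59, which includes a 2-fold difference.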
